A study of Mus musculus with 36 samples.

Results

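Argonaute 2 (Ago2) holds a mature miRNA and, through it, a stretch of messenger RNA. The regions described here are the 379 Ago2-bound peaks that the authors' annotation lists with a strong seed site for miR-29, out of 7585 annotated peaks (5.00%) and 7730 merged peaks with values. A peak was counted if its list of 8mer or 7mer-m8 sites named miR-29. An 8mer or 7mer-m8 site pairs with bases 2 to 8 of the miRNA, and in an 8mer an A follows. The choice used the sites only and no measured level.

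The peaks come from colonic tumours of C57BL/6 mice, in which RNA crosslinked to a Halo-tagged Ago2 was pulled down on a resin and sequenced (HEAP, related to CLIP-seq). The 6 tumours called G12D here carried an oncogenic K-Ras-G12D allele. The 6 tumours called WT carried wild-type K-Ras. Both kinds of tumour were also Halo-Ago2/+, Villin-CreER/+ and homozygous for floxed Apc, and the Villin promoter confines Cre to gut epithelium. Mice were 8 to 12 weeks old when an enema of 4-hydroxytamoxifen (200 µl at 5 mg/ml, in ethanol) started the tumours, and lawns of tumour tissue were collected once the animals were moribund, so the samples were whole tissue and not sorted cells. Each genotype had 3 tumours in each of 2 batches, and each tumour gave miRNA, mRNA and input libraries. No input values were used here, so a peak's signal reflects both the amount of its RNA and Ago2 binding.

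The miR-29 family is known for binding the messages of collagens and other extracellular matrix proteins, of enzymes that add or remove DNA methylation, and of regulators of cell survival such as Mcl1. It is made from a pair of clusters on different chromosomes, and the mature arms share their seed. In the gut, matrix genes are mostly read in stromal cells, while the Villin promoter marks the epithelium.

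The 3 mature miR-29 arms are shown because their shared seed defines the sites, and miR-16-5p and miR-21a-3p because their sites can overlap a miR-29 site. The sequences are RefSeq's for GRCm38.p6, written 5′ to 3′, with the seed (bases 2 to 8) in capitals.
miR-29a-3p: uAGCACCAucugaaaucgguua
miR-29b-3p: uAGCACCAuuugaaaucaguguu
miR-29c-3p: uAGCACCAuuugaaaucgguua
miR-16-5p: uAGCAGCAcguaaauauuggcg
miR-21a-3p: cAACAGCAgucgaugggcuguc
The miR-29a gene lies at chr6:31062673-31062694 and Mir29b-1 at chr6:31063025-31063047, both on the minus strand (mature arms). Mir29b-2 lies at chr1:195037091-195037113 and Mir29c at chr1:195037600-195037621, both on the plus strand. The 7mer-m8 site of all 3 arms reads TGGTGCT, and the 8mer reads TGGTGCTA. The miR-15/16 site TGCTGCT and the miR-21-3p site TGCTGTT each begin with the TGCT that ends the miR-29 site, so the joined runs TGGTGCTGCT and TGGTGCTGTT hold both sites in 10 bases. In such a run the base after the miR-29 site is G, which makes the miR-29 site a 7mer-m8 and not an 8mer.

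An 8mer was present in 170 of the miR-29 site peaks, and 209 had a 7mer-m8 site and no 8mer. Of the 379, 12 peaks held at least 2 strong miR-29 sites. The peaks fell on 360 genes and were 28 to 121 bases wide, with a median of 57. By number of peaks, miR-29 ranked 4 among 88 families named in the annotation, after let-7 with 684, miR-15/16 with 401 and miR-200b and miR-200c with 380. For 220 of the 379 peaks, miR-29 was the only family with a strong site. Another family was named at 159, among them peaks described below on Taf7, Xist, Cdc42, Ostc, Hmgcs1, Fzd5, Pigt, Dhx32, Slc9a3 and Eif4h.

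Sites of miR-21-3p stood beside miR-29 sites in 21 peaks (5.54%), while 163 of all annotated peaks (2.15%) had one. Of those 21 peaks, 18 were in the class with a 7mer-m8 and no 8mer, which holds 209 of the 379 site peaks. The letters of the peaks were not read here, so how many of the pairs are overlapping sites was not tested. Sites of miR-15/16 were also in 21 miR-29 site peaks (5.54%), against 401 of all annotated peaks (5.29%), and 15 of those 21 were in the same class. A let-7 site was listed in 8 of the miR-29 site peaks (2.11%), against 9.02% of all annotated peaks.

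The 3′ UTR held 184 of the miR-29 site peaks (48.5%, Wilson 95% interval 43.6 to 53.6) and 49.6% of all annotated peaks. Introns held 65 (17.2%, 13.7 to 21.3) and 12.1% of all annotated peaks. Coding or other exons held 95 (25.1%, 21.0 to 29.7) against 32.2%. Another 16 lay just beyond a 3′ UTR (4.22%, 2.62 to 6.75), against 2.36%. The intron share was also above that of the table at let-7 site peaks (17.7%) and miR-200b and miR-200c site peaks (15.5%), and below it at miR-15/16 site peaks (10.5%). The exon share was 40.4% at let-7, 27.4% at miR-200b and miR-200c and 35.4% at miR-15/16 site peaks. Peaks on 1 gene share its RNA, so these intervals cover counting error only. All but 1 of the 379 were on the authors' peak list for G12D tumours (378), and 98 were on the list for WT tumours, of which 97 were on both. Across all annotated peaks, 98% were on the G12D list and 28.1% on the WT list.

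The gene with most miR-29 site peaks was Tet3, an enzyme that oxidises methylated cytosine, with 5 of its 11 peaks. Another 15 genes had 2 each, among them Foxo3, a transcription factor under AKT, Zfp36, which destabilises AU-rich messages, and Mxd1, an antagonist of Myc. Of the 11 Tet3 peaks, the miR-29 site peak in an exon (chr6:83404656-83404720) was the strongest of the 5, with a mean of 2.13 normalised counts per base, against 0.960 for the strongest in the 3′ UTR (chr6:83364294-83364353).

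Ago2 itself carried little miR-29. The 3 mature 3p arms together made up 0.352% ± 0.0775 of the counted miRNA reads in G12D tumours and 0.397% ± 0.0682 in WT tumours (SD, n = 6 each). The miR-200b and miR-200c family, with almost the same number of site peaks, made up 9.24% ± 1.21 in G12D and 9.23% ± 0.691 in WT tumours. The let-7 family made up 4.32% ± 0.385 in G12D and 4.31% ± 0.422 in WT tumours, and miR-15/16 made up 1.38% ± 0.236 in G12D and 1.42% ± 0.212 in WT tumours. The number of site peaks of a family therefore did not follow its share of Ago2-bound miRNA over these 4 families. No p-value was computed for that comparison.

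The most abundant arm was miR-29a-3p, with a lowest value of 697, a median of 811 and a highest value of 929 normalised counts in G12D tumours, against 854, 954 and 1079 in WT tumours. The genotypes overlapped, but 5 of 6 G12D tumours were below every WT tumour. The log2 fold change, G12D over WT, was -0.26 (SE 0.10), with an unadjusted p of 0.0210 and an adjusted p of 0.175 in limma over all 284 tested miRNAs, so it did not pass the threshold of 0.05. DESeq2 gave an adjusted p of 0.0624, where it called 3.52% of miRNAs higher and 5.99% lower, and edgeR gave 0.170, where it called 2.11% higher and 2.82% lower. In the same limma fit 5 miRNAs were called higher (1.76%) and 6 lower (2.11%). The direction was the same in both batches, with log2 fold changes of -0.23 in batch 1 and -0.30 in batch 2.

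For miR-29b-3p, the G12D tumours had a lowest value of 255, a median of 334 and a highest value of 385 normalised counts, against 222, 317 and 408 in WT tumours. The WT range enclosed the G12D range, and the log2 fold change was 0.07 (SE 0.16, limma adjusted p = 0.834). It was -0.04 in batch 1 and 0.18 in batch 2. For miR-29c-3p the values were 144, 186 and 212 in G12D tumours and 162, 206 and 267 in WT tumours. All 6 G12D tumours were below the WT mean of 213, yet the ranges overlapped, and the log2 fold change of -0.21 (SE 0.14) had a limma adjusted p of 0.486. The arms differ by few bases outside the seed, so reads could be shared between them depending on how the authors counted.

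The passenger arms were scarce. Of these, only miR-29b-2-5p passed the filter of a mean of 10, with 10.3, 21.0 and 32.0 normalised counts (lowest, median and highest) in G12D tumours and 6.22, 12.9 and 25.2 in WT tumours. Its ranges overlapped, and the log2 fold change was 0.70 (SE 0.33, limma adjusted p = 0.287). The arms miR-29a-5p, miR-29b-1-5p and miR-29c-5p averaged 5.70, 3.77 and 3.46 normalised counts in G12D tumours and 5.78, 3.22 and 4.83 in WT tumours and were not tested.

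**Figure D1:**
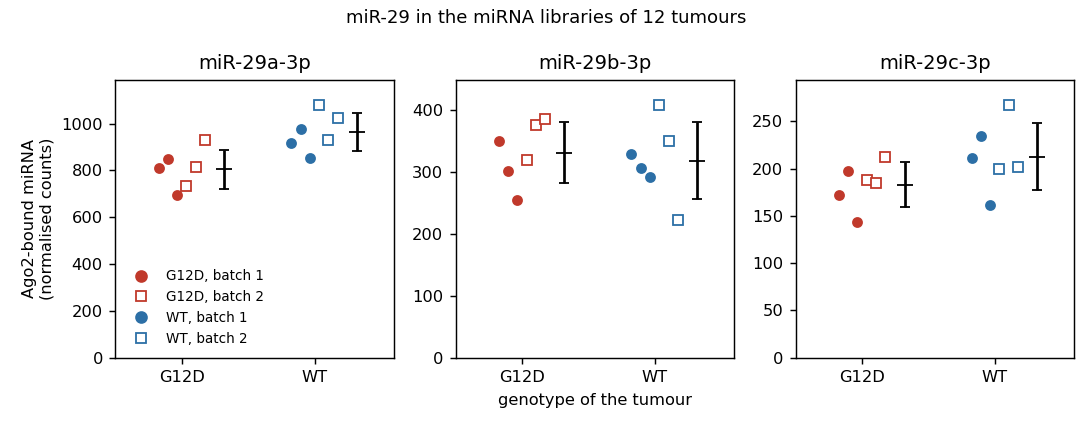
Ago2-bound miR-29a-3p, miR-29b-3p and miR-29c-3p in the miRNA libraries, in normalised counts on a linear axis from 0. Each point is 1 tumour, filled circles are batch 1 and open squares batch 2, and the bars at the right of each group are the mean ± SD (n = 6). For miR-29a-3p, 5 of 6 G12D tumours lie below the lowest WT tumour at 854.

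The mRNA libraries differed far more in depth, from 30607 to 974013 recovered reads in peaks. WT replicates 5 and 6 were the shallowest, with 30607 and 57037 reads, and 60.9% and 39.1% of the miR-29 site peaks had no read there, against at most 5.80% in the other 10 libraries. WT replicate 4 was the deepest WT library, with 770237 reads. Both shallow libraries are WT and in batch 2, so in that batch their depth and the genotype cannot be told apart except against WT replicate 4, and the limma and DESeq2 counts below are also given without them. edgeR and the pseudocount of 5 were run with all 12 tumours only. The labels number the tumours but do not say that each is a separate animal, so p-values measure the spread between the samples as labelled.

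Reads in miR-29 site peaks were 4.16% ± 0.883 of all reads in peaks in G12D tumours and 3.19% ± 1.13 in WT tumours (SD, n = 6 each). The G12D values had a lowest of 3.00, a median of 4.48 and a highest of 5.15%, against 1.44, 3.00 and 4.74% in WT tumours. The ranges overlapped over most of their length. G12D replicates 1 and 2 were at 3.13 and 3.00%, and WT replicates 2, 3 and 6 at 2.93, 3.07 and 2.93%, while G12D replicates 3 to 6 and WT replicates 1 and 4 were at 4.05% or more. WT replicate 5 was lowest, at 1.44% (441 of 30607 reads, exact 95% interval 1.31 to 1.58). The difference of means was 0.96 percentage points with all tumours and 0.46 without WT replicates 5 and 6. Among peaks in or just beyond a 3′ UTR only, the share was 4.54% ± 0.718 in G12D tumours and 4.32% ± 0.684 in WT tumours. The difference was 0.22 points, which is less than either SD.

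**Figure D2:**
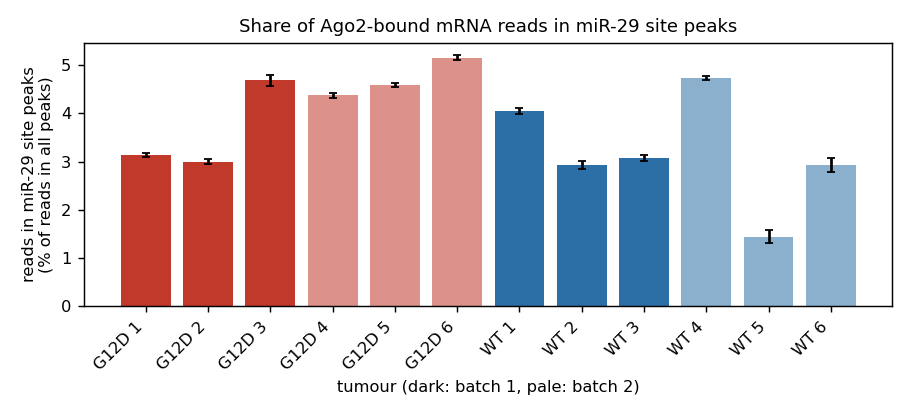
Share of the reads in all peaks that fell in miR-29 site peaks, in percent, for each of the 12 mRNA libraries. Bars are tumours, dark for batch 1 and pale for batch 2, and error bars are exact 95% binomial intervals, which cover counting error only. Both genotypes have tumours near 3% and tumours above 4%, and WT replicate 5 is at 1.44%.

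Of the 379 peaks, 377 had a mean of at least 5 normalised counts and were tested. In limma on log2(value + 1) with batch, none of the 377 passed an adjusted p of 0.05 in either direction, and none of all 7527 tested peaks did (0%). At an unadjusted p under 0.05, 184 were higher in G12D and 0 lower, where 35.9% of all tested peaks were higher and 0.173% lower. edgeR called 0 of the 377, where it called 0.0531% of all peaks higher and 0.0797% lower, and at its unadjusted p under 0.05 there were 102 higher and 1 lower (20% and 0.704% of all peaks). DESeq2 called 48 higher and 0 lower, where it called 10.1% of all peaks higher and 0.359% lower. The authors' deposited table also has 48 of these 377 peaks higher and 0 lower under 0.05, among 755 higher and 27 lower of 7613 peaks. Without WT replicates 5 and 6, limma called 0 of the 377 (0.0399% of all peaks were called higher and 0% lower), with 60 higher and 1 lower at an unadjusted p under 0.05 (14.1% and 0.878% of all peaks), and DESeq2 called 7 higher and 0 lower (2.53% and 0.106% of all peaks). All 7 were among the 48. DESeq2's own filter on low means gave no adjusted p to 200 of the 377 in that fit, so of the 48 calls 7 remained, 14 were not called and 27 had no adjusted p.

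The count turned on single choices. With a pseudocount of 5 in place of 1, limma called 46 of the 377 higher and 0 lower (6.72% and 0.093% of all peaks), and 32 of the 48 DESeq2 calls were among them. Without WT replicate 4, the WT library with most reads, limma called 236 of 376 site peaks higher and 0 lower (45.1% and 0.173% of all peaks). In batch 1 alone limma called 0 of 345, with 22 higher and 2 lower at an unadjusted p under 0.05 (7.23% and 0.372% of all peaks). In batch 2 alone it called 21 of 373 higher and 0 lower (3.55% and 0% of all peaks), with 199 higher and 0 lower at an unadjusted p under 0.05 (37.8% and 0.193% of all peaks). In batch 2 every G12D tumour was above every WT tumour at 167 of the 377 and below at 0 (40.7% and 0.199% of all tested peaks), against 72 above and 1 below in batch 1 (15.5% and 0.903%).

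Of the 377 tested peaks, 279 were on the authors' peak list for G12D tumours only, so they entered the table through the G12D libraries alone, and a fold change above 0 is in part set by that choice. The same holds for 5331 of the 7395 annotated peaks tested. The median log2 fold change was 1.61 for those 279 site peaks (1.41 for all such peaks) and 1.3 for the 98 on the WT list (1.09 for all such peaks). With WT replicates 5 and 6 left out, it was 0.49 for the 279 (0.40 for all such peaks) and 0.34 for the 98 (0.34 for all such peaks). Of the 48 DESeq2 calls, 41 were among the 279 and 7 among the 98.

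The median log2 fold change, G12D over WT, was 1.55 over the 377 miR-29 site peaks and 1.33 over all tested peaks. It was 1.59 for the 170 peaks with an 8mer, 1.52 for the 207 tested peaks with a 7mer-m8 and no 8mer, and 1.32 for peaks with no miR-29 match of any kind. Peaks with only a weaker miR-29 site had medians of 1.37 (7mer-A1, 83 peaks tested) and 1.45 (6mer, 126 peaks tested). For the other large families the medians were 1.53 at miR-15/16, 1.3 at let-7 and 1.19 at miR-200b and miR-200c site peaks, so the miR-15/16 value was close to that of miR-29. Within batch 1 the median was 0.53 for miR-29 site peaks and 0.43 for all tested peaks, and within batch 2 it was 2.66 and 2.29. Without WT replicates 5 and 6 it was 0.45 and 0.38, and with trimmed-mean (TMM) scaling, which moved the median of all tested peaks to 0.66, it was 0.90. The excess of 0.22 over all tested peaks thus shrank to 0.07 without those libraries. In DESeq2 with all 12 tumours, the medians were 0.97 for miR-29 site peaks and 0.86 for all tested peaks, closer together than in limma. No p-value was computed over the peaks as a group.

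**Figure D3:**
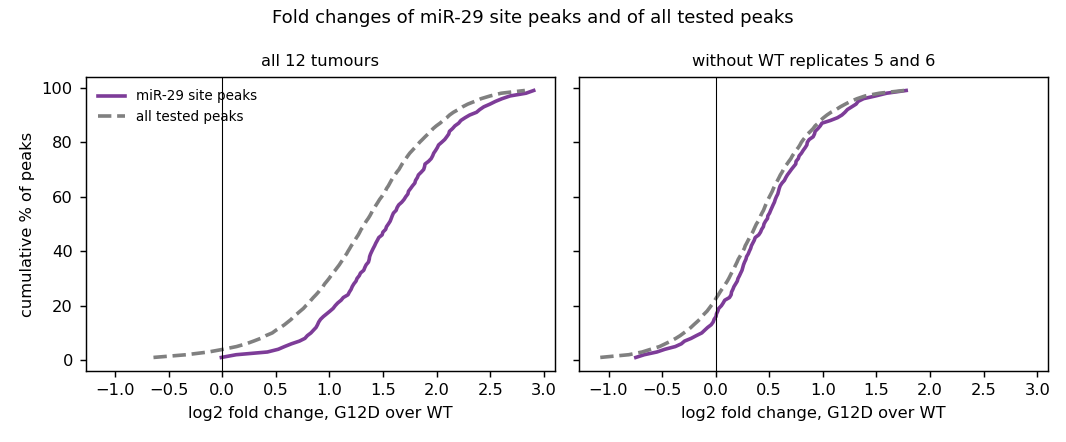
Cumulative share of peaks (percent) by log2 fold change, G12D over WT, from limma for the 377 tested miR-29 site peaks (solid) and all tested peaks (dashed), with all 12 tumours and without WT replicates 5 and 6. The medians are 1.55 and 1.33 with all tumours and 0.45 and 0.38 without those libraries.

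Peaks were also compared within genes. In 223 genes with both a miR-29 site peak and another peak, the log2 fold change of the site peak minus that of the gene's other peaks had a median of 0.24, with quartiles of -0.20 and 0.76, and was below 0 in 80 genes. When WT replicates 5 and 6 were left out, the median was 0.09, and 97 genes were below 0. Intronic peaks lie on unspliced RNA and the others mostly on the mature message. With intronic peaks left out, 177 genes had both kinds, and the median was 0.15, with 72 genes below 0, and 0.05 with 80 genes below 0 when WT replicates 5 and 6 were also left out.

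Fold changes also varied with the region of the transcript. The 65 intronic miR-29 site peaks had a median log2 fold change of 2.00, against 1.47 for all intronic peaks. The 183 tested in 3′ UTRs had 1.42, against 1.32 for all 3′ UTR peaks. Without WT replicates 5 and 6 these were 0.73 against 0.40 in introns and 0.35 against 0.37 in 3′ UTRs, so the sign of the gap turned in 3′ UTRs. DESeq2 called 15 of the 65 intronic site peaks higher (23.1%, against 11% of all intronic peaks) and 16 of the 183 in 3′ UTRs (8.74%, against 9.18%). With WT replicates 5 and 6 left out, it called 1 of the 65 and 3 of the 183, with no adjusted p for 44 and 88, against 4 of 921 and 102 of 3737 of all tested peaks there. This split was looked at after the values were seen.

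The strongest miR-29 site peaks by signal per base were those of Tspan8, a membrane tetraspanin of gut epithelium, at 9.57 normalised counts per base, Taf7, a subunit of the general transcription factor TFIID, at 9.36, and Tmem98, a membrane protein, at 6.64. All 3 had an 8mer. The Tspan8 peak (chr10:115849338-115849387, exon) had a lowest value of 406, a median of 602 and a highest of 1236 normalised counts in G12D tumours, against 22.6, 244 and 789 in WT tumours. All 6 G12D tumours were above the WT median and only WT replicate 4 reached into the G12D range, with WT replicates 5 and 6 at the bottom. Its log2 fold change was 2.00 (SE 0.73, limma adjusted p = 0.108), and 0.52 (adjusted p = 0.413) without WT replicates 5 and 6.

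The Tmem98 peak (chr11:80814234-80814293, exon) had 344, 622 and 792 normalised counts in G12D tumours and 26.5, 204 and 520.4 in WT tumours. WT replicate 4 alone lay inside the G12D range, which left 4 of 6 G12D tumours above every WT tumour. The log2 fold change was 2.14 (SE 0.69, limma adjusted p = 0.108), with 1.1 in batch 1 and 3.18 in batch 2, and 0.85 without WT replicates 5 and 6. The Taf7 peak, in the 3′ UTR with a miR-21ac-5p 8mer beside the miR-29 one, had 309, 529.7 and 715 in G12D tumours and 209.9, 500.0 and 871 in WT tumours. The WT range enclosed the G12D range, and the log2 fold change was 0.01 (SE 0.53, limma adjusted p = 0.984), which was 1.32 below the median of all tested peaks.

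Next by mean signal came peaks of Ostc, a subunit of the oligosaccharyltransferase complex, Ptbp3, an RNA-binding splicing regulator, Hmgcs1, an enzyme of cholesterol synthesis, and Lmnb1, a nuclear lamin. All 4 lie in 3′ UTRs with a 7mer-m8 site. Their log2 fold changes ran from 1.33 (Hmgcs1) to 2.20 (Ptbp3) with limma adjusted p from 0.108 to 0.138, and from 0.34 to 0.70 without WT replicates 5 and 6. In each of the 4, every G12D tumour was above the WT median.

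The Xist peak (chrX:103482396-103482448, 7mer-m8 site, with a miR-15/16 site) behaved unlike the rest. Xist is the RNA that coats the inactive X chromosome in female cells, and the labels do not give the sex of the animals. It had a lowest value of 0, a median of 229 and a highest of 604 in G12D tumours, against 0, 38.7 and 188 in WT tumours. G12D replicates 1 and 2 and WT replicate 5 were at 0, and G12D replicates 4 to 6 were all above 380. The log2 fold change was -4.64 in batch 1 and 6.80 in batch 2, and 1.08 (SE 1.45, limma adjusted p = 0.518) over both, which was -1.59 without WT replicates 5 and 6.

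**Figure D4:**
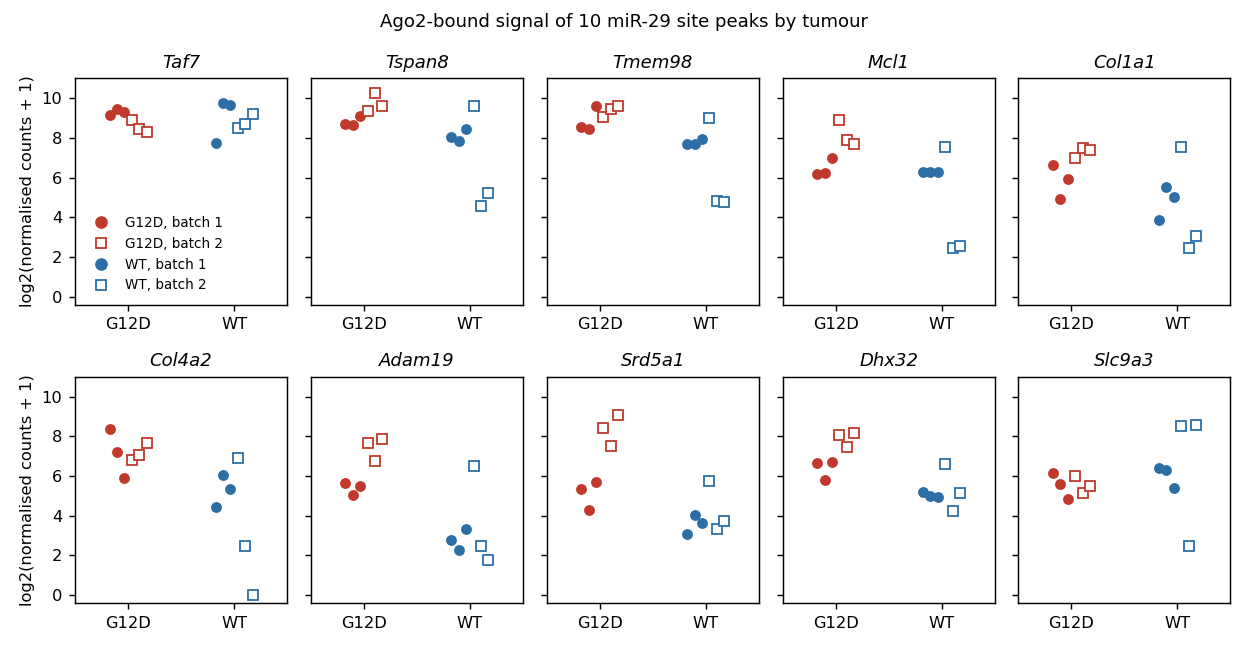
Signal of 10 miR-29 site peaks in each mRNA library, as log2(normalised counts + 1). Each point is 1 tumour, filled circles are batch 1 and open squares batch 2. WT replicate 4 is the highest WT point in 8 of the 10 panels drawn and WT replicates 5 and 6 are often the lowest, while the G12D medians of Taf7 and Slc9a3, 529.7 and 45.8, lie near or below the WT medians of 500.0 and 81.2.

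Of 39 matrix and basement membrane genes, the classical miR-29 targets, 15 had any peak, and 11 of these had a miR-29 site peak. They were the collagen genes Col1a1, Col1a2, Col3a1, Col4a1, Col4a2, Col5a1, Col5a2 and Col6a3, the elastic fibre gene Eln, the integrin subunit Itgb1 and the metalloprotease Adam19. None of the 11 was called by limma, 8 were higher at an unadjusted p under 0.05 (35.9% of all tested peaks were), and DESeq2 called 1, Adam19 (10.1% of all tested peaks). Without WT replicates 5 and 6, 2 were higher at an unadjusted p under 0.05 (14.1% of all tested peaks) and DESeq2 called 1, again Adam19, with no adjusted p for 4. Their median log2 fold change was 1.88, against 1.33 for all tested peaks and 1.55 for the 36 other tested peaks on genes of the list. It was 1.00 in batch 1 and 2.76 in batch 2, and 0.58 without WT replicates 5 and 6, against 0.38 for all tested peaks. Of the 11, only the peaks of Col4a2, Col5a1 and Itgb1 were on the authors' list for WT tumours. The others, Adam19 among them, were on the G12D list only, so fold changes above 0 are in part set by that choice.

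The Adam19 peak (chr11:46144611-46144664, 3′ UTR, 7mer-m8) was the only peak on its gene. It had a lowest value of 31.8, a median of 77.7 and a highest of 236 normalised counts in G12D tumours, against 2.41, 5.20 and 90.4 in WT tumours. All WT tumours but replicate 4 were below 10, and no G12D tumour was below 30. It had the largest limma log2 fold change among site peaks with a mean of at least 20, at 3.23 (SE 0.74, adjusted p = 0.108). DESeq2 gave 2.52 with an adjusted p of 0.00600, and 1.93 with an adjusted p of 0.00231 without WT replicates 5 and 6.

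The basement membrane collagens Col4a1 and Col4a2, whose genes are neighbours, each had 1 miR-29 site peak in the 3′ UTR. The Col4a2 peak had 57.9, 139.7 and 325 normalised counts in G12D tumours and 0, 29.8 and 120.5 in WT tumours, with 4 of 6 G12D tumours above every WT tumour. Its log2 fold change was 2.96 (SE 0.86, limma adjusted p = 0.108) and 1.34 without WT replicates 5 and 6. The Col4a1 peak had 23.9, 39.0 and 92.1 in G12D tumours and 0, 25.7 and 50.9 in WT tumours, and its groups overlapped more, with a log2 fold change of 1.79 (SE 0.79, limma adjusted p = 0.124) and 0.45 without WT replicates 5 and 6.

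Among the fibrillar collagens, the Col1a1 peak (3′ UTR, 8mer) had 29, 111 and 177 normalised counts in G12D tumours and 4.53, 22.5 and 185 in WT tumours. All G12D tumours were above the WT median, but WT replicate 4 was above them all. The log2 fold change was 1.97 (SE 0.77, limma adjusted p = 0.111) and 0.59 without WT replicates 5 and 6. The Col3a1 peak was at 0.77 (SE 0.93, limma adjusted p = 0.473; DESeq2 1.09), and 0.07 without those libraries. The Col1a2 peak was at 1.07 in limma and 0.42 in DESeq2, and -0.13 in limma without those libraries. The 2 highest tumours at Col3a1 were G12D replicates 1 and 2, at 52.1 and 53.9, while the other G12D tumours were below 10. The Col5a2 peak lay in the 5′ UTR and held 1 8mer and 2 7mer-m8 entries for miR-29.

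**Figure D5:**
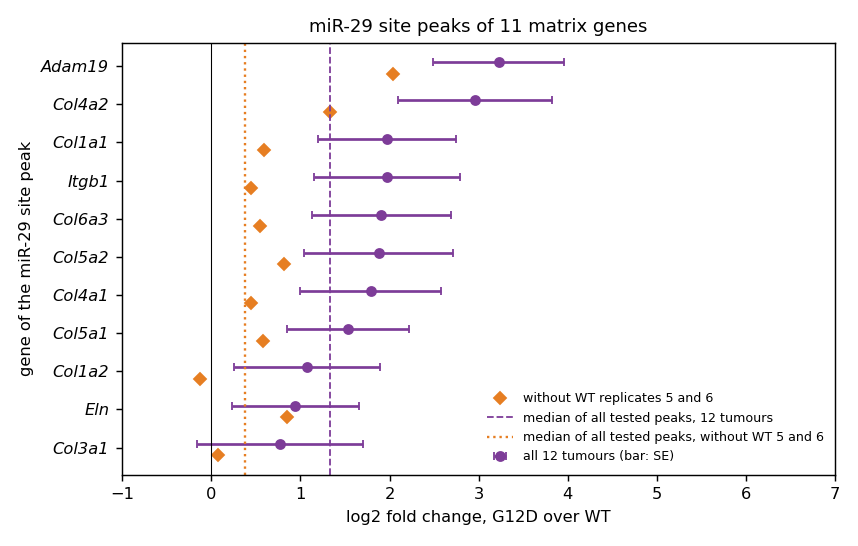
Log2 fold change, G12D over WT, of the miR-29 site peak of each of 11 matrix genes, from limma with all 12 tumours (circles, with SE) and without WT replicates 5 and 6 (diamonds). Vertical lines mark the medians of all tested peaks, 1.33 and 0.38. Adam19 and Col4a2 lie furthest right in both fits, and the Col1a2 diamond is at -0.13.

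Markers of the cells that could carry these RNAs were looked at in the same table. Colon epithelium markers had a peak for 11 of 14 genes. Fibroblast and smooth muscle markers had one for 3 of 12 genes, and those 3 were Col1a1, Col1a2 and Col3a1, themselves on the matrix list, while Dcn, Lum, Acta2 and Myh11 had none. No leukocyte marker of 10 and no endothelial or nerve marker of 9 had a peak. The summed signal over all peaks of the fibroblast markers was 211 to 659 normalised counts in G12D tumours (median 409) and 18.1 to 649 in WT tumours (median 115). That of the epithelial markers was 4262 to 10356 in G12D tumours (median 8683) and 770.1 to 10221 in WT tumours (median 5861). The fibroblast markers, which are those collagens, were thus apart in their medians along with the collagen site peaks. In whole tissue, fewer cells of a type and less RNA per cell cannot be told apart, and the part of cell composition in the collagen values was not tested.

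In the group of 11 genes for DNA methylation and demethylation, 5 had a peak, and Tet3 was the only one with a miR-29 site peak. Dnmt3a and Dnmt3b, known targets of miR-29, thus had no miR-29 site peak. The exonic Tet3 peak had a lowest value of 22.1, a median of 228 and a highest of 419 normalised counts in G12D tumours, against 8.95, 63.0 and 158 in WT tumours. G12D replicates 1 and 2 were low, at 41.0 and 22.1, and the groups overlapped. The log2 fold change was 1.73 (SE 0.70, limma adjusted p = 0.113), close to equal in batch 1 at 1.82 and batch 2 at 1.65. DESeq2 gave 1.87 with an adjusted p of 0.0449, and 1.69 with an adjusted p of 0.157 without WT replicates 5 and 6. The 4 peaks in the Tet3 3′ UTR had log2 fold changes of 0.78, 1.5, 0.90 and 1.42, with limma adjusted p of 0.143 or more, and from -0.31 to 0.28 without WT replicates 5 and 6.

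Of 16 survival and apoptosis genes, 11 had a peak and 4 a miR-29 site peak, all in 3′ UTRs. Mcl1, which restrains apoptosis, had 70.9, 166 and 470.1 normalised counts in G12D tumours and 4.53, 76.7 and 188 in WT tumours at its 8mer peak (chr3:95661835-95661890), 1 of 11 peaks on the gene. The groups overlapped, since G12D replicates 1 and 2 and WT replicates 1 to 3 all lay between 70.9 and 77.7. The log2 fold change was 2.08 (SE 0.83, limma adjusted p = 0.113), made of 0.18 in batch 1 and 3.97 in batch 2, and 0.32 without WT replicates 5 and 6. Bak1, which promotes apoptosis, had 29.9, 58.5 and 104 in G12D tumours and 0, 14.6 and 47.4 in WT tumours. WT replicate 4 was again the only WT tumour within the G12D range, and the log2 fold change was 2.37 (SE 0.79, limma adjusted p = 0.108; DESeq2 adjusted p = 0.0556). It was 1.11 in batch 1 and 3.63 in batch 2, and 0.98 without WT replicates 5 and 6 (DESeq2 adjusted p = 0.122). The proapoptotic Bbc3 and the adaptor Traf4 had 1.80 and 1.37 (limma adjusted p = 0.124 and 0.158), and 0.59 and 0.75 without those libraries.

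Of 39 growth signalling and cell cycle genes, 24 had a peak and 7 had miR-29 site peaks, 8 peaks in all. None was called by limma, 4 of the 8 were higher at an unadjusted p under 0.05 (35.9% of all tested peaks were), and DESeq2 called 2, Cdc42 and Fzd5 (10.1% of all tested peaks). When WT replicates 5 and 6 were left out, these counts were 2 in limma (14.1% of all tested peaks) and 0 in DESeq2 (2.53%), which gave no adjusted p for 1. Cdc42 is a small GTPase of the cytoskeleton, and its peak also named miR-21-3p. It had 11.1, 42.8 and 75.2 normalised counts in G12D tumours and 0, 5.47 and 15.7 in WT tumours, with 4 of 6 G12D tumours above every WT tumour, and DESeq2 gave a log2 fold change of 2.16 (adjusted p = 0.0165). Fzd5, a Wnt receptor, had 13.0, 57.5 and 112 in G12D tumours and 4.47, 9.69 and 49.9 in WT tumours, so the ranges overlapped, and DESeq2 gave 1.42 (adjusted p = 0.0449). Without WT replicates 5 and 6 neither was called by DESeq2 (log2 fold change 1.61 and 1.08, adjusted p = 0.0782 and 0.125).

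A list of mostly chromatin regulators held 16 symbols, of which Suv420h2 and Kmt5c name the same gene. Zfp36l1, also on it, is a relative of Zfp36 and not a chromatin regulator. Of the 16 symbols, 9 had a peak. Suv420h2 and Zfp36l1 had a miR-29 site peak, at log2 fold changes of 0.94 and 0.84 (limma adjusted p = 0.200 and 0.274). Of 19 genes of metabolism and secretion, 9 had a peak and Atp1b1 and Per1 a miR-29 site peak, at 0.05 and 1.23 (limma adjusted p = 0.948 and 0.203). All 4 values were below the median of all tested peaks, 1.33. With WT replicates 5 and 6 left out, they were 0.55, 0.25, -0.22 and 0.43, against a median of 0.38.

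The 7 site peaks called higher by DESeq2 with and without WT replicates 5 and 6 were those of Srd5a1, Adam19, Xpo7, Gprc5a, Akap13, Pigt and Dhx32. Apart from Adam19 and Xpo7, they were named after their values were seen. The peaks of Adam19, Xpo7, Gprc5a and Pigt were on the authors' list for G12D tumours only, so they were picked as peaks through those libraries alone. Those of Srd5a1, Akap13 and Dhx32 were on both lists. The Srd5a1 peak (chr13:69573689-69573758, 3′ UTR, 8mer), on the gene of a steroid 5-alpha-reductase, had 18.7, 117 and 545 normalised counts in G12D tumours and 7.34, 11.6 and 52.3 in WT tumours. Only WT replicate 4 lay inside the G12D range, which was itself wide, from 18.7 in replicate 2 to 545 in replicate 6. DESeq2 gave a log2 fold change of 2.78 (adjusted p = 0.000709), and 2.11 (adjusted p = 0.00111) without those libraries.

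The Dhx32 peak (chr7:133724483-133724545, exon, 7mer-m8), on a DEAH-box helicase gene, had 53.9, 138 and 289 normalised counts in G12D tumours and 18.1, 32.0 and 97.3 in WT tumours, and 5 of 6 G12D tumours were above every WT tumour. DESeq2 gave 1.81 (adjusted p = 0.00619), and 1.36 (adjusted p = 0.00182) without WT replicates 5 and 6. Gprc5a, an orphan receptor, had 7.72, 42.9 and 63.2 in G12D tumours and 0, 6.58 and 10.8 in WT tumours, again with 5 of 6 G12D tumours on top. Xpo7, a nuclear transport receptor, had its peak in an intron, with 21.4, 174 and 332 in G12D tumours and 0, 21.9 and 57.8 in WT tumours. The groups overlapped there through G12D replicates 1 and 2. For Akap13, a kinase anchoring protein, and Pigt, a subunit of the GPI transamidase, the DESeq2 log2 fold changes were 2.02 and 1.85 with all tumours and 1.35 and 1.27 without WT replicates 5 and 6.

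Of the other 41 peaks called by DESeq2, 27 had no adjusted p without WT replicates 5 and 6. Among these, with all 12 tumours, were Tcf7l2, a transcription factor of the Wnt pathway (log2 fold change 1.81, DESeq2 adjusted p = 0.0467), Ephb2, a receptor tyrosine kinase of the crypt (2.10, DESeq2 adjusted p = 0.0190), Etv4, an ETS transcription factor (2.61, DESeq2 adjusted p = 0.00778), and the cell cycle kinase Cdk1 (2.43, DESeq2 adjusted p = 0.0221). These 4 were also picked after their values were seen. The Etv4 peak had 0.691, 12.5 and 28.2 normalised counts in G12D tumours and 0, 1.29 and 4.53 in WT tumours, which is a low level, since 1 read was worth up to 4.53 normalised counts in the shallowest library. The peaks of Tcf7l2, Ephb2 and Cdk1, all in introns, were low too. Their medians were 20.7, 23.1 and 18.3 normalised counts in G12D tumours and 0.489, 0.559 and 0.947 in WT tumours. The 48 fold changes ran from 1.29 to 2.78.

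In 4 of the 377 site peaks (1.06%) every G12D tumour was above every WT tumour, a smaller share than the 1.7% of all tested peaks. In 0 every G12D tumour was below every WT tumour (0% of all tested peaks). The 4 peaks, named after their values were seen, were on Eif4h, a translation initiation factor, Pls1, an actin-bundling plastin of the brush border, Sept11, a septin, and RP23-173N16.6. Eif4h had 33.9, 43.6 and 56.9 normalised counts in G12D tumours and 12.1, 25.9 and 33.1 in WT tumours, at a log2 fold change of 0.90 (SE 0.59, limma adjusted p = 0.220), below the median of the whole table. The same 4 peaks were the ones without overlap when WT replicates 5 and 6 were left out (1.94% of all tested peaks then). Sept11 and RP23-173N16.6 were also among the 48 called by DESeq2. All 4 were on the authors' peak list for G12D tumours only, so they were picked as peaks through the libraries in which they are high.

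By limma log2 fold change, Adam19, Xpo7 (3.08), Col4a2, Tm9sf1 and Mmadhc were the 5 highest site peaks with a mean of at least 20. Tm9sf1, a transmembrane 9 protein, had 18.3, 90.1 and 137 normalised counts in G12D tumours and 0, 11.8 and 70.1 in WT tumours, and its log2 fold change was 2.89 (SE 0.92, limma adjusted p = 0.108). Mmadhc, a protein of vitamin B12 metabolism, had 16.6, 63.4 and 138 in G12D tumours and 0, 11.4 and 70.6 in WT tumours, at 2.87 (SE 0.90, limma adjusted p = 0.108). In both, every G12D tumour was above the WT median, and the values without WT replicates 5 and 6 were 0.93 and 0.94.

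At the other end, the smallest log2 fold changes among site peaks with a mean of at least 20 were those of Slc9a3, Alox15, Taf7, Atp1b1 and Sptan1. Slc9a3, a sodium-proton exchanger of absorptive colonocytes, had 27.8, 45.8 and 69.5 normalised counts in G12D tumours and 4.53, 81.2 and 374 in WT tumours. No G12D tumour was above the WT median, WT replicates 4 and 6 stood far above the rest at 364 and 374, and the log2 fold change was -0.74 (SE 0.81, limma adjusted p = 0.432). DESeq2 gave -1.45 with an adjusted p of 0.102. Alox15, a lipoxygenase whose exonic peak held both an 8mer and a 7mer-m8 entry for miR-29, had 16, 22.8 and 45.4 in G12D tumours and 9.47, 22.0 and 108 in WT tumours, with a log2 fold change of -0.13 (SE 0.65, limma adjusted p = 0.862).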

How the data were processed

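The authors deposited signal values for 7730 merged peaks and 596 miRNAs, which are read counts scaled by a factor for each library. Every value was a whole multiple of 1 read (100%, tolerance 0.001 reads), which gave 30607 to 974013 reads per mRNA library and 289462 to 471587 per miRNA library. Peak columns carry no library type, and are read here as mRNA libraries. The submitters' processing notes list STAR 2.5.2b, DESeq2, mm10 and GRCm38 with no role for any. The calling of peaks has no description (not given in the sources used here). Peak coordinates are as deposited, and mm10 (GRCm38) is the one build listed. The sites, regions, genes and widths (other values) are from the authors' annotation. The deposited log2 fold changes and adjusted p-values are the authors' own comparison and are named as such. The deposited score in the authors' peak lists was not used beyond list membership, and lists were made per genotype.

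Genotypes were compared by limma 3.58.1 with a trended prior, in R 4.3.3, with batch as a covariate and log2(value + 1) as the response. Peaks needed a mean of 5 or more (7527 tested) and miRNAs a mean of 10 or more (284 tested). Benjamini-Hochberg adjustment ran over all features tested, at 0.05. The added 1 weighs most on low features. Median log2 fold changes were larger in this fit than in DESeq2. They were 1.55 against 0.97 for miR-29 site peaks and 1.33 against 0.86 for all tested peaks. edgeR 4.0.16 (quasi-likelihood) and DESeq2 1.42.0 were run on the recovered reads. The fit was tested on simulated data. Medians over peak classes have no test. Intervals cover counting error only, and those on reads take each read as independent. They are too narrow where 1 molecule gave several reads.

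Peaks named in the text were the 10 of highest mean, the 5 of largest and 5 of smallest log2 fold change with a mean of at least 20, and the strongest site peak of listed genes, with others marked as picked later. The members and gene lists were chosen with earlier results of these data known. A result on 1 gene is not reported here. Symbols are those of the authors' annotation, and peaks on paralogs or antisense genes may share reads. Mature miRNAs were matched by name to RefSeq, and no peak sequence was read.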

Additional observations from a re-analysis of the deposited data

Results flagged for a closer look

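The spread within groups was checked for every counted miR-29 arm, the share of reads in miR-29 site peaks and each peak picked for naming. These were 120 groups of 6 tumours in all. Dixon's criterion flags about 1 in 20 groups by chance if groups are independent and normally spread. These groups share the same tumours and mostly hold counts, so that rate is no yardstick here. In 15 of the 120 the highest tumour stood apart from the others of its group by this criterion. WT replicate 4, the deepest WT library, was that tumour in 13 of the 15. In normalised counts, with the next highest WT tumour after each, it was at 90.4 against 8.95 at Adam19, 52.3 against 15.2 at Srd5a1, 97.3 against 35.7 at Dhx32 and 65.2 against 13.4 at Pigt. On the collagen and elastin genes it was at 185 against 45.5 (Col1a1), 52.8 against 15.2 (Col1a2), 103 against 22.7 (Col5a1), 31.1 against 11.4 (Col5a2) and 11.9 against 4.53 (Eln). At Tm9sf1, Mmadhc and Bbc3 it was at 70.1 against 20.1, 70.6 against 16.6 and 22.7 against 3.79, and at the Tet3 peak starting at 83367012 at 62.2 against 16.9. In G12D tumours, replicate 3 stood apart at Atp1b1 with 111 against 52.1, and replicate 5 at Itgb1 with 119.6 against 65.3. Without WT replicate 4, limma called 236 of 376 tested miR-29 site peaks higher (45.1% of all tested peaks). The cause was not tested.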

How the results depend on the processing

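The count of miR-29 site peaks called higher, 0 in limma with all tumours, was 46 with a pseudocount of 5, 48 in DESeq2, 21 in batch 2 alone and 7 in DESeq2 without WT replicates 5 and 6 (no adjusted p for 200 of 377), the last chosen after seeing the data, as were the counts by region and list without those libraries and the within-gene difference without introns. Leaving out 1 tumour at a time gave 0 to 236, with 236 without WT replicate 4. The excess of the median log2 fold change over all tested peaks stayed above 0, between 0.01 and 0.37, and the difference in share between 0.22 and 1.27 percentage points. The cause of these shifts was not tested. With the replicate block, 0 peaks were called and the excess was 0.22. Same-numbered tumours did not deviate together in every pair (correlations from -0.52 to 0.31 over peaks), so the numbers were not taken as pairs. The sign of miR-29b-3p turned to -0.043 in batch 1 and -0.090 without WT replicates 5 and 6, with -0.06 to 0.14 when 1 tumour was left out. With TMM scaling the sign turned at Taf7 (-1.02), Sptan1 (-0.79), Atp1b1 (-0.96), Suv420h2 (-0.079), Zfp36l1 (-0.17), Eif4h (-0.10) and the Tet3 peak at 83364294 (-0.080). edgeR gave -0.11 at Taf7 and -0.037 at Atp1b1, and DESeq2 -0.11 and -0.056. Batch 2 alone gave -0.25 at Taf7. Batch 1 alone gave -4.64 at Xist, -0.60 at Sptan1, -0.37 at Atp1b1, 0.41 at Alox15, -0.53 at Vegfa and -0.32 at the Tet3 peak at 83363750. Without WT replicates 5 and 6 they were -1.59 (Xist), -0.63 (Sptan1), -0.22 (Atp1b1), 0.0034 (Alox15), -0.48 (Vegfa), -0.31 and -0.10 (Tet3 at 83363750 and 83364294) and -0.13 (Col1a2), and in DESeq2 without them -1.26 (Xist), -0.27 (Sptan1), -0.20 (Atp1b1), -0.16 (Vegfa), -0.35 and -0.015 (the same Tet3 peaks) and -0.011 (Col1a2). With 1 tumour, or WT replicates 5 and 6 together, left out, the ranges that crossed 0 were -0.31 to 0.20 (Taf7), -1.59 to 2.18 (Xist), -0.63 to 0.65 (Sptan1), -0.25 to 0.24 (Atp1b1), -0.36 to 0.19 (Alox15), -0.48 to 1.79 (Vegfa), -0.31 to 1.14 and -0.10 to 1.35 (Tet3 at 83363750 and 83364294) and -0.13 to 1.67 (Col1a2). None of these values with a changed sign passed an adjusted p of 0.05. Depth limits the 2 shallow WT libraries most: a value of 0 there allows up to 3 reads.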
